A study of Mus musculus with 6 samples.

Results

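Osteoclasts, the bone-resorbing cells of the monocyte lineage, are made under the control of signals from the stroma around them, and the genes of those signals and of the osteoclast itself were followed here in marrow stroma sorted on Ebf2. The genes are 10: the ligands Csf1 and Il34 and their shared receptor Csf1r, the ligand Tnfsf11 (RANKL), its receptor Tnfrsf11a (RANK) and its decoy receptor Tnfrsf11b (osteoprotegerin), and the osteoclast effector genes Ctsk, Acp5, Ocstamp and Dcstamp. They were chosen by name. Every probe set was taken whose platform annotation names exactly 1 gene, that gene being among the 10, which gave 18 of 45037 probe sets and 10 of 18193 genes. Both groups came from wild-type C57BL/6 mice that had received no treatment. Their marrow cells were used fresh and gated as negative for CD45 (leukocytes), TER119 (erythroid cells) and CD31 (endothelial cells). Within that gate, 3 arrays measured Ebf2-positive cells and 3 measured Ebf2-negative cells, each on an Affymetrix MOE430_2 array after amplification of RNA from 1000 or 2000 cells. Ebf2 is a transcription factor of immature mesenchymal cells. The sources used here give neither the exact age and number of the mice, beyond adult, nor how Ebf2 was detected in the sort. Nothing says that the replicates are separate animals, so p-values measure only the spread among these arrays, and part of it may be technical.

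As background, Csf1 and Il34 both bind Csf1r on cells of the monocyte lineage and keep them alive, and Tnfsf11 on stromal and bone cells then binds Tnfrsf11a on these precursors and drives them to fuse into osteoclasts. Tnfrsf11b is secreted by stromal cells and captures Tnfsf11, which holds that step back. Ctsk encodes cathepsin K, the protease that digests bone collagen, Acp5 encodes tartrate-resistant acid phosphatase, and Dcstamp and Ocstamp encode membrane proteins needed for fusion of the precursors. Cathepsin K is the hallmark protease of osteoclasts but is also made by fibroblasts and by mesenchymal cells of the periosteum.

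Promoter windows of 250 bases before and 50 bases after a start site were taken from RefSeq (build GRCm38.p6) for 5 of the 10 genes. Those of Ctsk and Csf1 are shown because these genes passed the test below, and that of Tnfsf11 because it is the central ligand of the pathway. Each is written 5′ to 3′ on the gene's strand, and capitals mark matches to the motifs searched.
Ctsk (chr3:95498960-95499259, plus strand): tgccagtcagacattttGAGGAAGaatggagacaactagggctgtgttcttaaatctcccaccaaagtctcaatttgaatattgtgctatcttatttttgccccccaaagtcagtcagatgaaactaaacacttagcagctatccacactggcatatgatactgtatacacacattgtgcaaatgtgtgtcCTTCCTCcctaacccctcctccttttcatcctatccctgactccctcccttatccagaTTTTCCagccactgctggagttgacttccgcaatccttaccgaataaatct
Csf1 (chr3:107760420-107760719, minus strand): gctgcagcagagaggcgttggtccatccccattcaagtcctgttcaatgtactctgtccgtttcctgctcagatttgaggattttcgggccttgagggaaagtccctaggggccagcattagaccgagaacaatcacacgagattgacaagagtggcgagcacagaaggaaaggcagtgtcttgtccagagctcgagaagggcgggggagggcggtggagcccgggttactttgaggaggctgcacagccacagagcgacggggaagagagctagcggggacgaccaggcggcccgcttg
Tnfsf11 (chr14:78307994-78308293, minus strand): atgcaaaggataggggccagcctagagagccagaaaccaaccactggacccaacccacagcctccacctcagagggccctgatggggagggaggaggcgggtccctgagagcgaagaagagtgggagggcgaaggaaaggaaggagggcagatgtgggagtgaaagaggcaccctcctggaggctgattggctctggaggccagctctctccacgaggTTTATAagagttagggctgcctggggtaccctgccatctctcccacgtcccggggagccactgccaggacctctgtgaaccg
The motifs, searched on both strands, were AP-1 (TGANTCA), the PU.1 core (GAGGAAG), the NFAT core (GGAAAA), the EBF core, the MITF site (TCATGTG) and the TATA box (TATAAA). The Ctsk window held the PU.1 core on the plus strand with its first base at position -233 and on the minus strand at -59, and the NFAT core on the minus strand from -1 across the start site. These motifs occur in 13.6% (PU.1 core) and 23.4% (NFAT core) of 32841 RefSeq windows of this length. The Csf1 window held none of the 6 motifs. The Tnfsf11 window held the TATA box on the minus strand at -32, a motif in 13.6% of windows. The EBF core, found in 0.904% of all windows, was in none of the 7 windows searched, which belong to 5 of the 10 genes. A match describes the letters and is not a bound site.

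The labels were checked first. Ebf2 stood at 8.13, 8.80 and 8.04 on the Ebf2-positive arrays, against 3.10, 4.02 and 3.84 on the Ebf2-negative arrays, in log2 units of the RMA signal, the scale of every level below. Ptprc, the gene of CD45, was at 6.68, 6.76 and 3.59 on the Ebf2-positive arrays, against 8.78, 7.98 and 8.23 on the Ebf2-negative arrays, and so was measured in a gate drawn to leave out CD45. Its difference of -2.65 did not pass (limma adjusted p = 0.0698). A dimmer probe set of Ptprc averaged 2.43 ± 0.09 in Ebf2-positive cells and 2.57 ± 0.37 in Ebf2-negative cells. Pecam1, the gene of CD31, averaged 3.57 ± 0.52 in Ebf2-positive cells and 3.01 ± 0.70 in Ebf2-negative cells, below the median of all genes. The mean over 9 erythroid genes was 4.52 to 5.36 on the Ebf2-positive arrays and 9.78 to 10.01 on the Ebf2-negative arrays, although both groups were gated as TER119-negative. The mean over 11 fibroblast and periosteal genes was 10.92 to 11.32 on the Ebf2-positive arrays and 5.19 to 5.86 on the Ebf2-negative arrays. In such bulk samples fewer cells of a type and less RNA per cell cannot be told apart, which holds for every difference below.

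**Figure D1:**
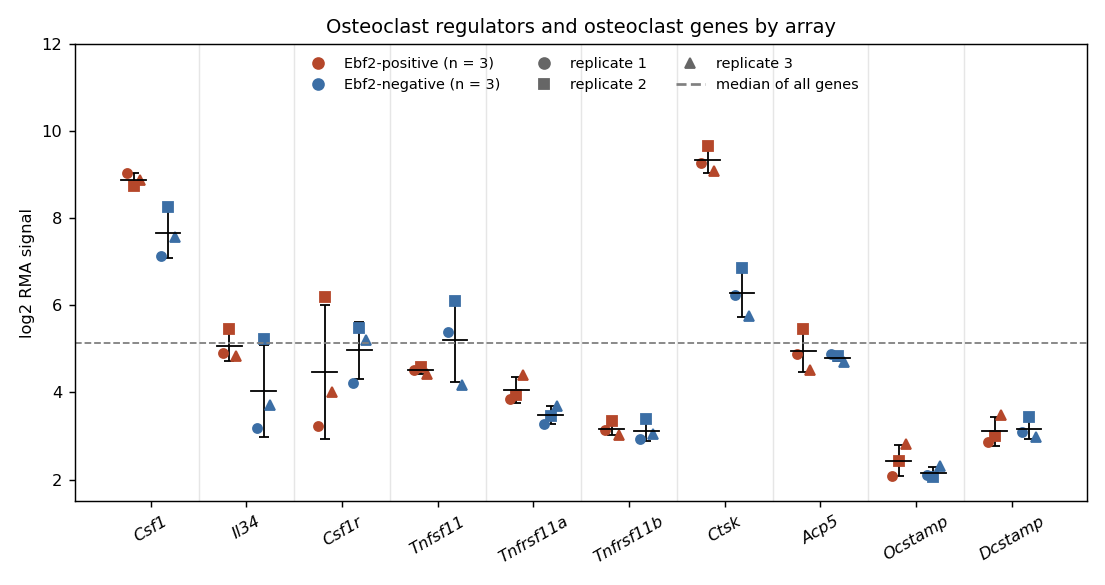
Signal of the 10 genes on each array. The y axis is the log2 RMA signal of the probe set used for each gene, points are arrays (shape gives the replicate), bars are the mean ± SD of 3 arrays, and the dashed line is the median over all genes (5.13). Ctsk and Csf1 lie above the line in both groups and are higher in Ebf2-positive cells, and the other 8 genes average below it over the 6 arrays. Levels of different genes come from different probes and are not compared.

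Of the 10 genes, 2 were higher in Ebf2-positive cells (Ctsk and Csf1) and 0 were lower, by limma with a Benjamini-Hochberg adjusted p of 0.05 over all 18193 genes. At an unadjusted p of 0.05 the counts were 3 higher and 0 lower, the third being Tnfrsf11a. No share over all genes is given at the unadjusted level, here or for the lists below, so those counts have no background. Over all genes 24.4% passed the adjusted threshold, 10.8% higher and 13.6% lower, so the share of these genes that passed it is near the background. The Ebf2-positive and Ebf2-negative arrays did not overlap for 3 of the 10 (Ctsk, Csf1 and Tnfrsf11a), against 43.0% of all genes. The median difference of the 10 genes was 0.21 and that of all genes 0.07. The poly-A controls added during preparation were brighter on the Ebf2-positive arrays, at 12.32 ± 0.23 against 9.84 ± 1.0 on the Ebf2-negative arrays (SD, n = 3). Centring on them shifts every difference by -2.48. Then 0 of the 10 genes were higher and 7 were lower (all but Csf1, Il34 and Ctsk), beside 227 and 15596 of all 18193 genes. Of the genes called over the whole array 1.43% were then higher, in place of 44.3%. The differences below are therefore relative to the rest of the array's genes, and the part of the spike-in gap in them was not tested.

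Ctsk, the collagen-digesting protease, showed the largest difference among the 10 genes. Its probe set (1450652_at) read 9.27, 9.66 and 9.07 on the Ebf2-positive arrays, against 6.23, 6.85 and 5.75 on the Ebf2-negative arrays. Every Ebf2-positive array was above every Ebf2-negative array, and the gap between the groups was wider than the range within either. The difference was 3.06 (SE 0.33), or 8.32-fold, with a 95% interval of 2.27 to 3.84 (limma, adjusted p = 0.00165). Leaving out any of the arrays left it between 2.79 and 3.34, with adjusted p up to 0.0105. Centring on the poly-A controls lowered it to 0.58 (adjusted p = 0.461). No second probe set names Ctsk alone.

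None of the other osteoclast effector genes passed. Acp5, the acid phosphatase, read 4.88, 5.46 and 4.51 on the Ebf2-positive arrays, against 4.87, 4.83 and 4.70 on the Ebf2-negative arrays. The groups overlapped, and the difference of 0.15 (95% interval -0.52 to 0.81, limma adjusted p = 0.739) did not pass. Dcstamp, a fusion protein gene, read 2.85, 3.0 and 3.49 on the Ebf2-positive arrays, against 3.10, 3.43 and 2.97 on the Ebf2-negative arrays, a difference of -0.05 (-0.65 to 0.54, adjusted p = 0.895). Ocstamp, its partner in fusion, read 2.08, 2.42 and 2.81 on the Ebf2-positive arrays, against 2.10, 2.06 and 2.31 on the Ebf2-negative arrays, a difference of 0.28 (-0.30 to 0.86, adjusted p = 0.461). The groups overlapped for both fusion genes, which were dim on all 6 arrays, in the part of the range where differences are compressed. RMA gives no detection call that would tell a low level from none. The intervals of all 3 genes exclude a difference as large as that of Ctsk. With centring on the poly-A controls all 3 were called lower in Ebf2-positive cells (Acp5 -2.33, Dcstamp -2.53 and Ocstamp -2.20), as were 15596 of all 18193 genes.

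Csf1, the growth factor of the monocyte lineage, was modestly higher in Ebf2-positive cells. Its brightest probe set (1460220_a_at) read 9.03, 8.73 and 8.88 on the Ebf2-positive arrays, against 7.13, 8.26 and 7.56 on the Ebf2-negative arrays. The groups did not overlap, and Ebf2-negative replicate 2 came nearest to the Ebf2-positive arrays. The difference was 1.23 (SE 0.31), or 2.34-fold, with an interval of 0.47 to 1.98 (limma, adjusted p = 0.0327). This call was fragile. Leaving out any of the 3 Ebf2-positive arrays ended it, with adjusted p = 0.0847, 0.0551 and 0.0715 for replicates 1, 2 and 3. So did leaving out Ebf2-negative replicate 1 (difference 0.97, adjusted p = 0.0869) or 3 (difference 1.18, adjusted p = 0.112). Without Ebf2-negative replicate 2 the difference was 1.53 (adjusted p = 0.0149). Centring on the poly-A controls turned it to -1.25 (adjusted p = 0.105).

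The 4 probe sets of Csf1 disagreed. The next brightest (1425154_a_at) read 6.80, 6.00 and 6.45 on the Ebf2-positive arrays, against 5.49, 6.09 and 5.66 on the Ebf2-negative arrays, a difference of 0.67. Set 1425155_x_at, whose name marks probes that can cross-hybridise, averaged 6.16 ± 0.19 in Ebf2-positive cells and 5.15 ± 0.71 in Ebf2-negative cells and differed by 1.01. The dimmest (1448914_a_at) averaged 5.48 ± 0.68 in Ebf2-positive cells and 5.47 ± 0.56 in Ebf2-negative cells and differed by 0.01. None of these 3 passed over all probe sets (limma adjusted p = 0.177, 0.134 and 0.991), and with the mean of the 4 sets Csf1 differed by 0.73 (adjusted p = 0.111). Among all 18 probe sets 2 passed, those of Ctsk and the brightest of Csf1, where 15.1% of all probe sets did.

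**Figure D2:**
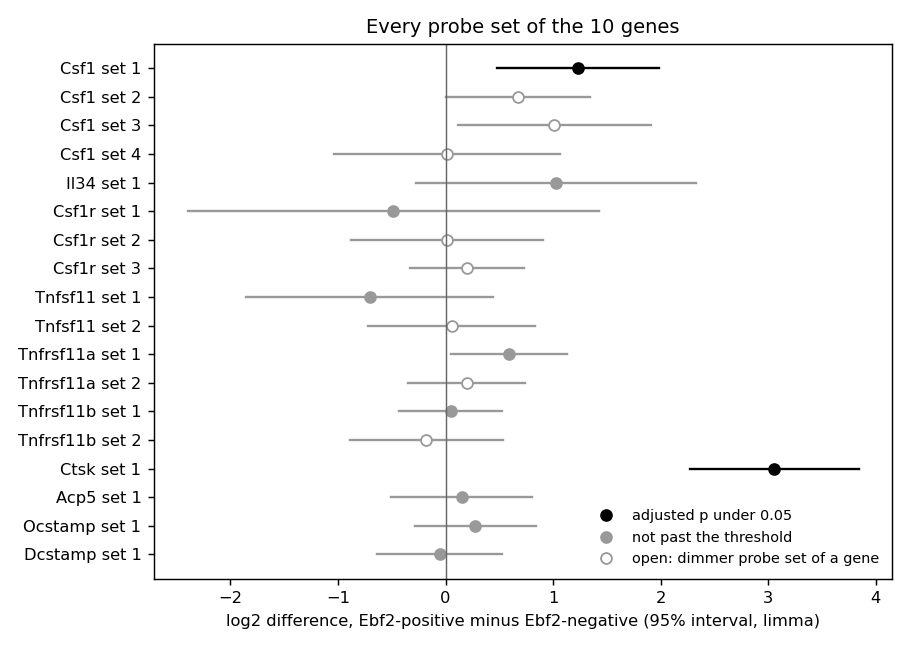
Difference of each of the 18 probe sets on the log2 scale, Ebf2-positive minus Ebf2-negative, with its 95% interval from limma over all probe sets (n = 3 arrays a group). Sets of a gene run from brightest to dimmest, open points are sets not used for the gene, and black marks an adjusted p under 0.05. The Ctsk set and the brightest Csf1 set are the black points, and the Csf1 sets spread from 0.01 to 1.23.

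Il34, the second ligand of Csf1r, did not pass. It read 4.90, 5.47 and 4.83 on the Ebf2-positive arrays, against 3.18, 5.22 and 3.71 on the Ebf2-negative arrays. Ebf2-negative replicate 2 lay among the Ebf2-positive arrays and the other Ebf2-negative arrays lay below them. The difference was 1.02 (95% interval -0.26 to 2.30, limma adjusted p = 0.225), and without Ebf2-negative replicate 2 it was 1.62 and passed (adjusted p = 0.0248). With centring on the poly-A controls the sign turned to -1.46 (adjusted p = 0.0593).

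Csf1r, the receptor of both ligands, is a marker of monocytes and macrophages. Its brightest probe set read 3.23, 6.20 and 4.0 on the Ebf2-positive arrays, against 4.23, 5.48 and 5.19 on the Ebf2-negative arrays. Ebf2-positive replicate 2 was the highest of the 6 and Ebf2-positive replicate 1 the lowest, so the spread within the Ebf2-positive group exceeded the difference of -0.49 (-2.36 to 1.38, adjusted p = 0.695). Without Ebf2-positive replicate 2 the difference was -1.35 (adjusted p = 0.0924). With centring on the poly-A controls it was -2.97 and passed (limma adjusted p = 0.000272), where 15596 of all 18193 genes were called lower. The other sets averaged 4.67 ± 0.69 and 4.12 ± 0.34 in Ebf2-positive cells, against 4.66 ± 0.24 and 3.92 ± 0.04 in Ebf2-negative cells.

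Markers of macrophages and monocytes were low in both groups. The mean over 18 such genes was 3.83, 4.82 and 3.71 on the Ebf2-positive arrays, against 3.82, 4.21 and 4.10 on the Ebf2-negative arrays. Ebf2-positive replicate 2 was highest here, as it was for Csf1r, Ctsk, Acp5, Il34, Tnfsf11 and Tnfrsf11b within its group. Within that group the pan-leukocyte, reticular, fibroblast and endothelial lists were also highest on it, while the mural, osteoblast, erythroid and lymphocyte lists were not. None of the 18 macrophage and monocyte genes passed (limma, 0 also at an unadjusted p of 0.05), 13 of them averaged below the median of all genes, and their median difference was 0.06. Lyz2, the lysozyme gene of myeloid cells and the brightest of the list, read 5.97, 9.41 and 6.16 on the Ebf2-positive arrays, against 8.93, 9.53 and 8.96 on the Ebf2-negative arrays, and was lower in Ebf2-positive cells without replicate 2 (-3.08, adjusted p = 0.00206). Mpeg1, a pore-forming protein of macrophages, averaged 5.98 ± 0.99 in Ebf2-positive cells and 5.60 ± 0.26 in Ebf2-negative cells. Without Ebf2-positive replicate 2 the difference of Ctsk was 2.89 (adjusted p = 0.00486). The part of such cells in the differences was not tested.

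**Figure D3:**
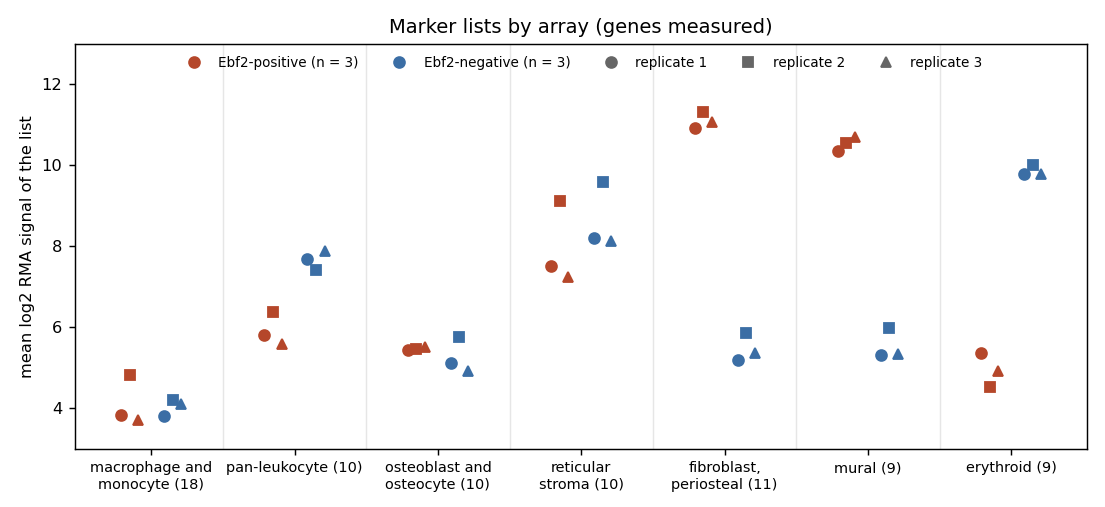
Mean log2 RMA signal of each marker list on each array, Ebf2-positive left of Ebf2-negative, with the number of genes measured in brackets and the point shape giving the replicate. Macrophage and monocyte genes lie between 3.71 and 4.82 in both groups, fibroblast and mural genes are higher on every Ebf2-positive array, and erythroid genes are higher on every Ebf2-negative array.

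Tnfsf11, the ligand that drives osteoclast formation, did not pass. Its brighter probe set read 4.51, 4.59 and 4.43 on the Ebf2-positive arrays, against 5.38, 6.09 and 4.17 on the Ebf2-negative arrays. The Ebf2-positive arrays lay close together, and the Ebf2-negative arrays spread to both sides of them. The difference was -0.70 (95% interval -1.84 to 0.43, limma adjusted p = 0.341), and without Ebf2-negative replicate 3 it was -1.23 and passed (adjusted p = 0.0498). With centring on the poly-A controls the difference was -3.18 and passed (adjusted p = 9.21e-05), where 15596 of all 18193 genes were called lower. The dimmer set averaged 2.83 ± 0.61 in Ebf2-positive cells and 2.78 ± 0.05 in Ebf2-negative cells.

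The array with the highest Tnfsf11, Ebf2-negative replicate 2, was also the highest of its group for Csf1, Il34, Ctsk, Csf1r, Tnfrsf11b and Dcstamp. On that array the mean of 10 reticular stroma genes was 9.58, against 8.19 and 8.14 on Ebf2-negative replicates 1 and 3, and that of 10 osteoblast and osteocyte genes was 5.75, against 5.12 and 4.92. The endothelial list (5.73, against 4.59 and 4.36) and the mural list (5.99, against 5.31 and 5.34) were also highest there within the group. So were the fibroblast, macrophage and erythroid lists, while the pan-leukocyte and lymphocyte lists were lowest there. The reticular list was also highest on replicate 2 of the Ebf2-positive group (9.12, against 7.51 and 7.25). The part of these lists in the differences was not tested.

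Tnfrsf11a, the receptor RANK of osteoclast precursors, read 3.85, 3.94 and 4.40 on the Ebf2-positive arrays, against 3.28, 3.47 and 3.69 on the Ebf2-negative arrays. The groups did not overlap, but the difference of 0.59 (95% interval 0.03 to 1.14) did not pass after adjustment (limma adjusted p = 0.123). All 6 values were below the median of all genes. Its dimmer set averaged 2.70 ± 0.28 in Ebf2-positive cells and 2.50 ± 0.23 in Ebf2-negative cells.

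Tnfrsf11b, the decoy receptor osteoprotegerin, was dim on all 6 arrays. It read 3.14, 3.34 and 3.03 on the Ebf2-positive arrays, against 2.94, 3.38 and 3.05 on the Ebf2-negative arrays. The groups overlapped, with a difference of 0.05 (-0.45 to 0.55, limma adjusted p = 0.892), and its second set differed by -0.18. Tnfsf11 relative to Tnfrsf11b was taken within each array, and probe affinities cancel only when the groups are compared. The shift between the groups was -0.75 (two-sided exact permutation p = 0.4, where 3 against 3 arrays cannot go below 0.1). Tnfsf11 contributed -0.70 of that shift and Tnfrsf11b the rest.

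**Figure D4:**
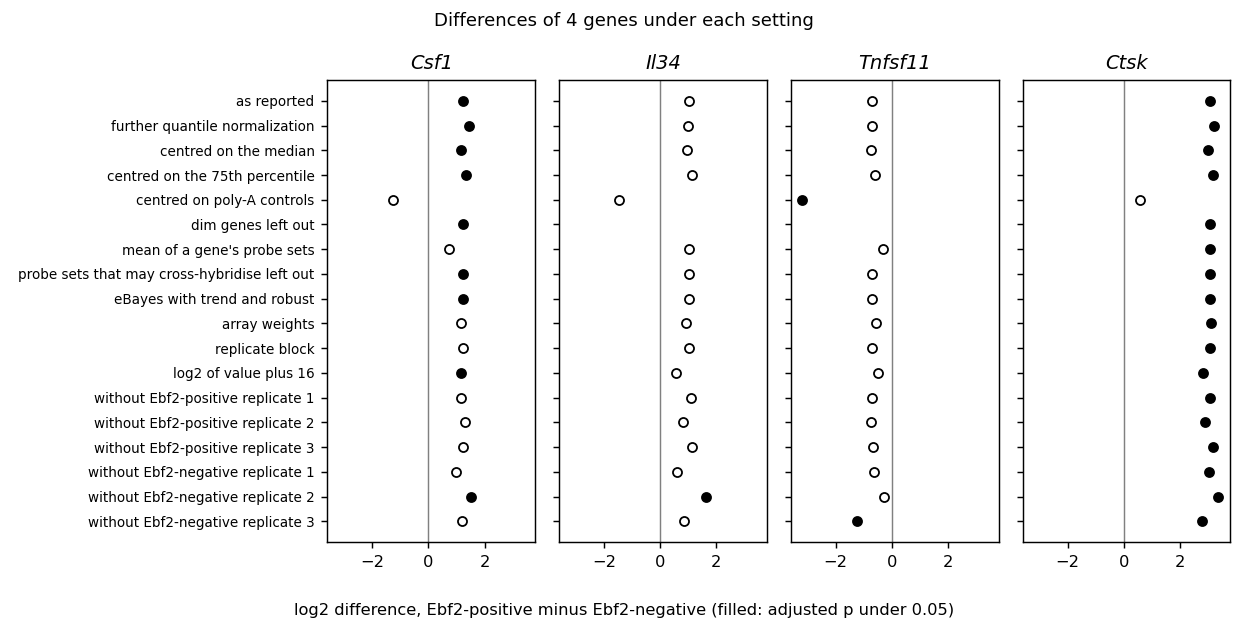
Log2 difference, Ebf2-positive minus Ebf2-negative, of Csf1, Il34, Tnfsf11 and Ctsk under each processing setting (rows), with filled points for an adjusted p under 0.05 and no point where a setting gave no value. Ctsk is filled in every setting shown except centring on poly-A controls, while Csf1 is filled in some settings and Il34 and Tnfsf11 in few.

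The genes around this axis were read from 5 lists. Of these, the list of stromal signals and receptors, many of which act upstream of Tnfsf11, had the largest median difference (1.52, against 0.07 over all genes). Of 15 measured, 9 were higher in Ebf2-positive cells and 0 lower (limma; 9 and 2 at an unadjusted p of 0.05), while Tnfsf11 itself was not called. Of all genes 10.8% were higher and 13.6% lower. Wnt5a, a noncanonical Wnt ligand that acts on the precursors and enhances their RANK expression rather than raising Tnfsf11, averaged 6.23 ± 0.14 in Ebf2-positive cells and 2.22 ± 0.29 in Ebf2-negative cells, which differ by 4.01. Il6st, the shared signalling receptor of the IL-6 family, differed by 3.42, and Ptger2, a receptor of prostaglandin E2, by 2.77. Without single arrays the count of higher genes ran from 6 to 9. With centring on the poly-A controls 1 was higher and 6 were lower, beside 227 and 15596 of all 18193 genes.

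Transcription factors and signal carriers below Tnfrsf11a gave 5 higher and 0 lower of 16 (limma; 6 and 0 at an unadjusted p of 0.05), with a median difference of 0.68. Of all genes 24.4% passed, 10.8% higher and 13.6% lower. The largest were Mitf (8.15 ± 0.71 in Ebf2-positive cells and 5.30 ± 0.25 in Ebf2-negative cells, difference 2.85), a factor that acts on osteoclast genes including Ctsk in mouse and is also active in other cell types, Jun (2.77), a subunit of AP-1, and Prdm1 (2.64), a repressor that acts in osteoclast and lymphoid differentiation. Nfatc1, the master factor of osteoclast differentiation, was picked with its value already known. It read 7.69, 5.73 and 7.29 on the Ebf2-positive arrays, against 6.29, 5.66 and 4.66 on the Ebf2-negative arrays, and its difference of 1.37 did not pass (adjusted p = 0.172) except without Ebf2-positive replicate 2 (1.96, adjusted p = 0.0413), and it was -1.11 with centring on the poly-A controls (adjusted p = 0.15). Under that centring 0 genes of the list were higher and 10 were lower, beside 227 and 15596 of all 18193 genes.

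Genes of ITAM co-stimulation, the immunoreceptor signals that osteoclast precursors need beside RANK, had a median difference below 0. Of 11 measured, 0 were higher and 3 lower in Ebf2-positive cells (limma; 0 and 5 at an unadjusted p of 0.05), with a median of -1.26. Of all genes 10.8% were higher and 13.6% lower, 24.4% in all, and the share of these 11 that passed is near that. The kinase gene Btk was at 4.44 ± 0.95 in Ebf2-positive cells and 8.0 ± 0.37 in Ebf2-negative cells (-3.56), the kinase gene Syk differed by -1.52 and the phospholipase gene Plcg2 by -1.46. Leaving out Ebf2-positive replicate 2 gave a count of 6. Leaving out Ebf2-negative replicate 3 gave 1, with Syk and Plcg2 not called (adjusted p = 0.0696 and 0.0595), and Syk was also lost when Ebf2-negative replicate 1 was left out (adjusted p = 0.0632). With the mean of its probe sets Syk differed by -0.42 (adjusted p = 0.218). These genes work in many blood cells, and of 10 pan-leukocyte genes 0 were higher and 5 lower, with list means of 5.58 to 6.37 on the Ebf2-positive and 7.41 to 7.88 on the Ebf2-negative arrays. The part of such cells in the difference was not tested.

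The resorption and fusion machinery was split. Of 18 genes, 7 were higher and 3 lower in Ebf2-positive cells (limma), where 10.8% of all genes were higher and 13.6% lower, with a list median of 0.25. Those with the largest positive differences work in many cell types: Sirpa, a receptor of CD47 (8.23 ± 0.12 in Ebf2-positive cells and 5.09 ± 0.08 in Ebf2-negative cells, difference 3.14), Cd9, a tetraspanin (2.71), and Mmp14, a membrane collagenase (2.68). The lower ones were Car2, the carbonic anhydrase of osteoclasts and of red cells (9.17 ± 0.85 in Ebf2-positive cells and 12.90 ± 0.22 in Ebf2-negative cells, -3.73), Cd47, the ligand of Sirpa (-1.58), and Mmp9, a gelatinase of osteoclasts and myeloid cells (-1.51). Mmp9 lost its call when replicate 1 or 2 of the Ebf2-positive arrays, or 2 or 3 of the Ebf2-negative arrays, was left out (adjusted p = 0.102 to 0.123). It was also not called with further quantile normalization (0.0509), centring on the 75th percentile (0.0544), eBayes with trend and robust (0.0502), the replicate block (0.071) or log2 of value plus 16 (0.0711). Averaging over all its probe sets made the difference of Mmp9 larger, at -2.22, and it was called (limma adjusted p = 0.00569). Averaged in the same way, Cd47 differed by -0.21 and was not called (adjusted p = 0.366). Without Ebf2-negative replicate 1, 4 genes of the list were higher. With centring on the poly-A controls 0 were higher and 10 lower, beside 227 and 15596 of all 18193 genes. Another 2 genes, more particular to osteoclasts, were picked with their values already known. Calcr, the calcitonin receptor, averaged 2.21 ± 0.33 in Ebf2-positive cells and 2.21 ± 0.36 in Ebf2-negative cells, both dim. Atp6v0d2, a proton pump subunit of osteoclasts, averaged 3.59 ± 0.56 in Ebf2-positive cells and 2.46 ± 0.36 in Ebf2-negative cells, and its difference of 1.13 did not pass (adjusted p = 0.0575). It passed under 4 alternatives: without Ebf2-positive replicate 1 (1.37, adjusted p = 0.0405), with centring on the 75th percentile (0.0377), with eBayes with trend and robust (0.0352) and with the replicate block (0.0419). With centring on the poly-A controls it was -1.35, not passing (adjusted p = 0.0806).

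Inhibitors of osteoclast formation gave 5 higher and 1 lower of 13 (limma), beside 10.8% and 13.6% of all genes, with a list median of 0.43. Lgr4, a receptor that also binds RANKL, was at 7.92 ± 0.96 in Ebf2-positive cells and 5.63 ± 0.70 in Ebf2-negative cells (2.29), Nrp1, a semaphorin receptor, differed by 2.07 and Sfrp1, a secreted Wnt inhibitor, by 1.91. Tnfaip3, an inhibitor of NF-kappaB signalling, was lower (-1.68). The count of higher genes fell to 2 without Ebf2-negative replicate 1 and to 1 without Ebf2-negative replicate 3, in both of which Lgr4 (adjusted p = 0.0745 and 0.095) and Sfrp1 (0.0662 and 0.0629) were not called. Lgr4 was also not called with log2 of value plus 16 (0.055). Averaging all probe sets of a gene gave smaller differences for Lgr4 (1.06), Sfrp1 (0.80) and Tnfaip3 (-0.80), and likewise for Wnt5a (2.08), Il6st (2.04), Mitf (1.31), Sirpa (1.31) and Mmp14 (1.70), all still called. With centring on the poly-A controls 0 inhibitors were higher and 7 lower, beside 227 and 15596 of all 18193 genes.

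**Figure D5:**
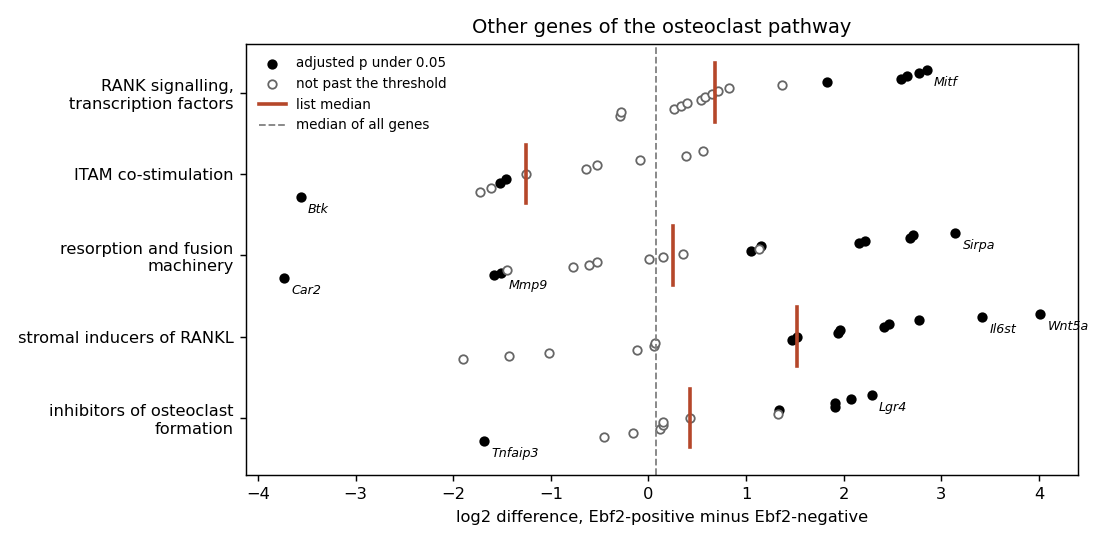
Log2 difference, Ebf2-positive minus Ebf2-negative, of the measured genes of 5 pathway lists (rows), with filled points for an adjusted p under 0.05, a red bar at the list median and a dashed line at the median of all genes (0.07). The row labelled stromal inducers of RANKL holds stromal signals and receptors, not all of which act upstream of Tnfsf11. Genes of that row lie mostly to the right and ITAM genes mostly to the left.

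Likeness to a gene was measured by Pearson's r over the 6 arrays among 8923 other genes at or above the median level, clone and gene-model identifiers left out. It was taken for Ctsk and Csf1, the members that reach that level. The nearest to Ctsk were Prkd1, a protein kinase D gene, Sort1, the sorting receptor sortilin, and Foxo1, a forkhead transcription factor, each with r of 0.999. Prkd1 read 9.45, 10.05 and 9.28 on the Ebf2-positive arrays, against 5.64, 6.26 and 4.78 on the Ebf2-negative arrays, the same order within each group as Ctsk. The nearest to Csf1 were Nlgn2, a neuroligin (0.997), Tmem9b, a lysosomal membrane protein (0.993), and Mrtfb, a coactivator of serum response factor (0.992). The 6 points share the group difference and the quantile normalization, so such values are descriptions. They also rest on the brightest probe set of each gene. With the mean of all its sets Sort1 differed by 0.16 (limma adjusted p = 0.712), in place of 1.65. Nlgn2 then differed by 0.74 (limma adjusted p = 0.0696), in place of 1.51. Prkd1, Foxo1 and Mrtfb were still called, and Tmem9b was called in neither.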

How the data were processed

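RNA of 3 Ebf2-positive and 3 Ebf2-negative samples was measured on Affymetrix MOE430_2 arrays. The authors deposited a linear intensity for each probe set on each array, calculated with RMA, per the labels and the series' design text. As generally run, RMA gives all arrays 1 distribution of probe values, so a difference in total RNA per cell cannot be seen. The log2 of each deposited intensity was taken here. After 64 control probe sets were left out, 34945 of 45037 probe sets named exactly 1 gene in GEO's platform annotation. Entrez identifiers were looked up in a RefSeq table (GRCm38.p6), which changed 0 symbols. Of several probe sets for a gene, the brightest on average stood for it, and each was also tested singly.

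The test was limma's (version 3.58.1 in R 4.3.3, functions lmFit and eBayes). It is two-sided, and p-values were adjusted by Benjamini-Hochberg over all genes or probe sets, with a threshold of 0.05. The code was tested on simulated data. The number of arrays, 3 a group, limits the precision. The 10 genes, the lists and the tests were chosen with earlier results of these data known. Genes were named by rule: the 10 genes, Ebf2, Ptprc and Pecam1, up to 3 called genes with the largest difference each way in a list (or the brightest 2 where none was called) and the 3 genes most like Ctsk and Csf1. Nfatc1, Calcr and Atp6v0d2 were added outside this rule, with their values already known. Of marker lists other than that of macrophages, only means and counts are printed, apart from Ptprc and Pecam1. Some genes of these lists are not reported here. The lists of 6 lymphocyte genes (0 higher, 0 lower, also at an unadjusted p of 0.05 in limma), 8 endothelial genes (2 higher, 0 lower) and 9 mural genes (9 higher, 0 lower) were read as well. Of 11 fibroblast genes all 11 were higher, of 9 erythroid genes all 9 were lower, of 10 osteoblast genes 3 were higher and 1 lower, and of 10 reticular genes 0 passed (limma, 0 also at an unadjusted p of 0.05). Alternatives covered scaling, filters, the choice of probe set, the variance model, the log scale, the replicate number as a block and leaving out each array. Those for pathway lists and for the split of called genes were added after seeing the data. Python 3.11.15 and matplotlib 3.10.9 drew the figures.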

Additional observations from a re-analysis of the deposited data

How the results depend on the processing

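The difference of Ctsk kept its direction and its call under 16 alternatives and lost the call with centring on the poly-A controls (0.58). Csf1 kept its direction under the same 16, with 0.73 to 1.53, and its call under 8. The count of called members was 1 when a gene's probe sets were averaged, with array weights and with the replicate block, 7 with centring on the poly-A controls and 1 to 3 on leaving out single arrays. The count of called member probe sets was 1 with centring on the median, eBayes with trend and robust, array weights, the replicate block and log2 of value plus 16, and 14 with centring on the poly-A controls, and 1 to 3 on leaving out single arrays. Over all genes 15823 were called with centring on the poly-A controls, and 2690 to 4348 on leaving out single arrays, against 4430. Of the pathway lists, 10 RANK signalling genes and 11 ITAM genes were called with centring on the poly-A controls. On leaving out single arrays, 1 to 6 ITAM genes, 2 to 6 inhibitors, 7 to 10 resorption genes, 6 to 10 stromal signals and receptors and 5 to 6 RANK signalling genes were called.

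Replicate numbers are shared between the groups, but they are not stated to pair the arrays and were not taken to do so. The correlation of deviations of same-numbered arrays was low, at 0.034 to 0.113, although all 6 arrays correlated best with their own number. With the replicate block Csf1 was not called (limma adjusted p = 0.0653). The shift of Tnfsf11 relative to Tnfrsf11b (-0.75) was computed without the block, so that setting says nothing about it. That shift was -1.23 to -0.44 on leaving out single arrays, and -0.26 with the mean of each gene's probe sets.

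Centring on the poly-A controls, a constant shift, turned the sign of Csf1 (-1.25 and, for other sets, -1.81, -1.47 and -2.47), Il34 (-1.46), Tnfrsf11a (-1.89 and -2.28), Tnfrsf11b (-2.43), Acp5 (-2.33), Ocstamp (-2.20), the dimmer sets of Csf1r (-2.47 and -2.28) and Tnfsf11 (-2.42), and of Lgr4 (-0.19), Nrp1 (-0.41), Sfrp1 (-0.57), Mpeg1 (-2.09), Nlgn2 (-0.97), Tmem9b (-1.82), Mrtfb (-1.07), Sort1 (-0.83), Foxo1 (-0.56), Nfatc1 (-1.11), Atp6v0d2 (-1.35) and Calcr (-2.47). Some differences near 0, among them those of Tnfrsf11b, Dcstamp, Acp5, Csf1r and Calcr, also changed sign under other alternatives without passing in either. Centring on the poly-A controls also turned the medians of the lists of RANK signalling (-1.80), resorption (-2.23), stromal signals and receptors (-0.96) and inhibitors (-2.05). On leaving out single arrays the resorption median ran from -0.059 (Ebf2-positive replicate 3) to 0.55 (Ebf2-positive replicate 1). Centring on the 75th percentile shifted every difference by 0.12. Where the construction of an alternative does not show it, the cause was not tested. Differences of genes near the lower end of the signal are compressed.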
